A study of Danio rerio with 12 samples.

Results

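The genes described here encode the zebrafish proteasome, its regulators and its assembly factors. They were taken from the array annotation as the probe sets with a single gene symbol that starts with psm, a letter from a to g and a digit. This gave 61 probe sets for 50 genes, out of 8793 genes with a single symbol. Of the 50 genes, 8 had more than 1 probe set, and each such gene is read from its brightest probe set, taken as a mean of log2 signals over all 12 arrays. The genes fell into 8 of the alpha ring, 7 of the constitutive beta ring, 5 inducible or MHC-linked beta subunits, 7 ATPases and 11 other subunits of the 19S cap, 3 chaperones of cap assembly, 3 activators, 1 inhibitor and 3 chaperones of core assembly. The remaining 2, psmc3ip and psme3ip1, fit the naming rule although their products are partners of a subunit rather than parts of the particle.

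The proteasome degrades proteins that carry a ubiquitin chain. Its barrel-shaped core, the 20S particle, has outer rings of alpha subunits that gate the entrance and inner rings of beta subunits, of which psmb5, psmb6 and psmb7 supply the cutting sites. The 19S cap recognises the chain, removes it and feeds the unfolded protein into the core with a ring of ATPases. In immune cells and after interferon the catalytic subunits are replaced by psmb8, psmb9 and psmb10, and the activator of psme1 and psme2 docks on the core, which favours peptides for MHC class I. Proteasomes are also known from mammalian testis, where a germ cell form of the core carries the alpha subunit psma8 and serves spermatogenesis.

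Adult zebrafish of the wild-type AB strain were sampled as testis, as ovary, as the male body without testes and as the female body without ovaries. All fish came from the same parents, were 4 to 12 months old and had been housed apart by sex for 5 days. Each group had 3 arrays, and gonads and remaining body came from the same individuals. Whole gonads and bodies hold many cell types, so fewer cells of a type and less RNA per cell cannot be told apart. The number of arrays limits the precision of every value.

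The values are GCOS signals, which measure hybridisation on a linear scale and had been brought to the same trimmed mean on every array. Signals below 32 were set to this floor before log2 values were tested with limma, with p-values adjusted over all probe sets and a threshold of 0.05. On the ovary arrays 33.0% to 35.7% of probe sets lay at or below the floor, against 10.4% to 18.3% on the arrays of the other 3 groups, and the median signal was 103.0 to 128.7, against 183.8 to 208.4. The summed signal of 7 oocyte markers was 774 to 1081 in testis, 70607 to 78062 in ovary, 231 to 562 in male body and, in female body, 29141 to 61847 with the highest sum on female body 1. The summed signal of 7 male germ cell markers was 37470.3 to 39216 in testis and at most 1037 in any other group, and 3 of them, dnai1.1, sycp3 and tekt1, lay at the floor on all ovary arrays.

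With the deposited scaling, testis had the highest mean signal of the 4 groups for 39 of the 50 genes and the lowest for none. The same count was not made over all genes, and the testis arrays also had the highest median signals, 199.9 to 208.4. Male body had the highest mean for 8 genes and ovary for 3, namely psma1, psmd10 and psme3. Ovary had the lowest mean for 20 genes, female body for 18 and male body for 12. Each pair of groups shares its arrays with other pairs, so the values of different comparisons given side by side are not independent of each other.

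**Figure D1:**
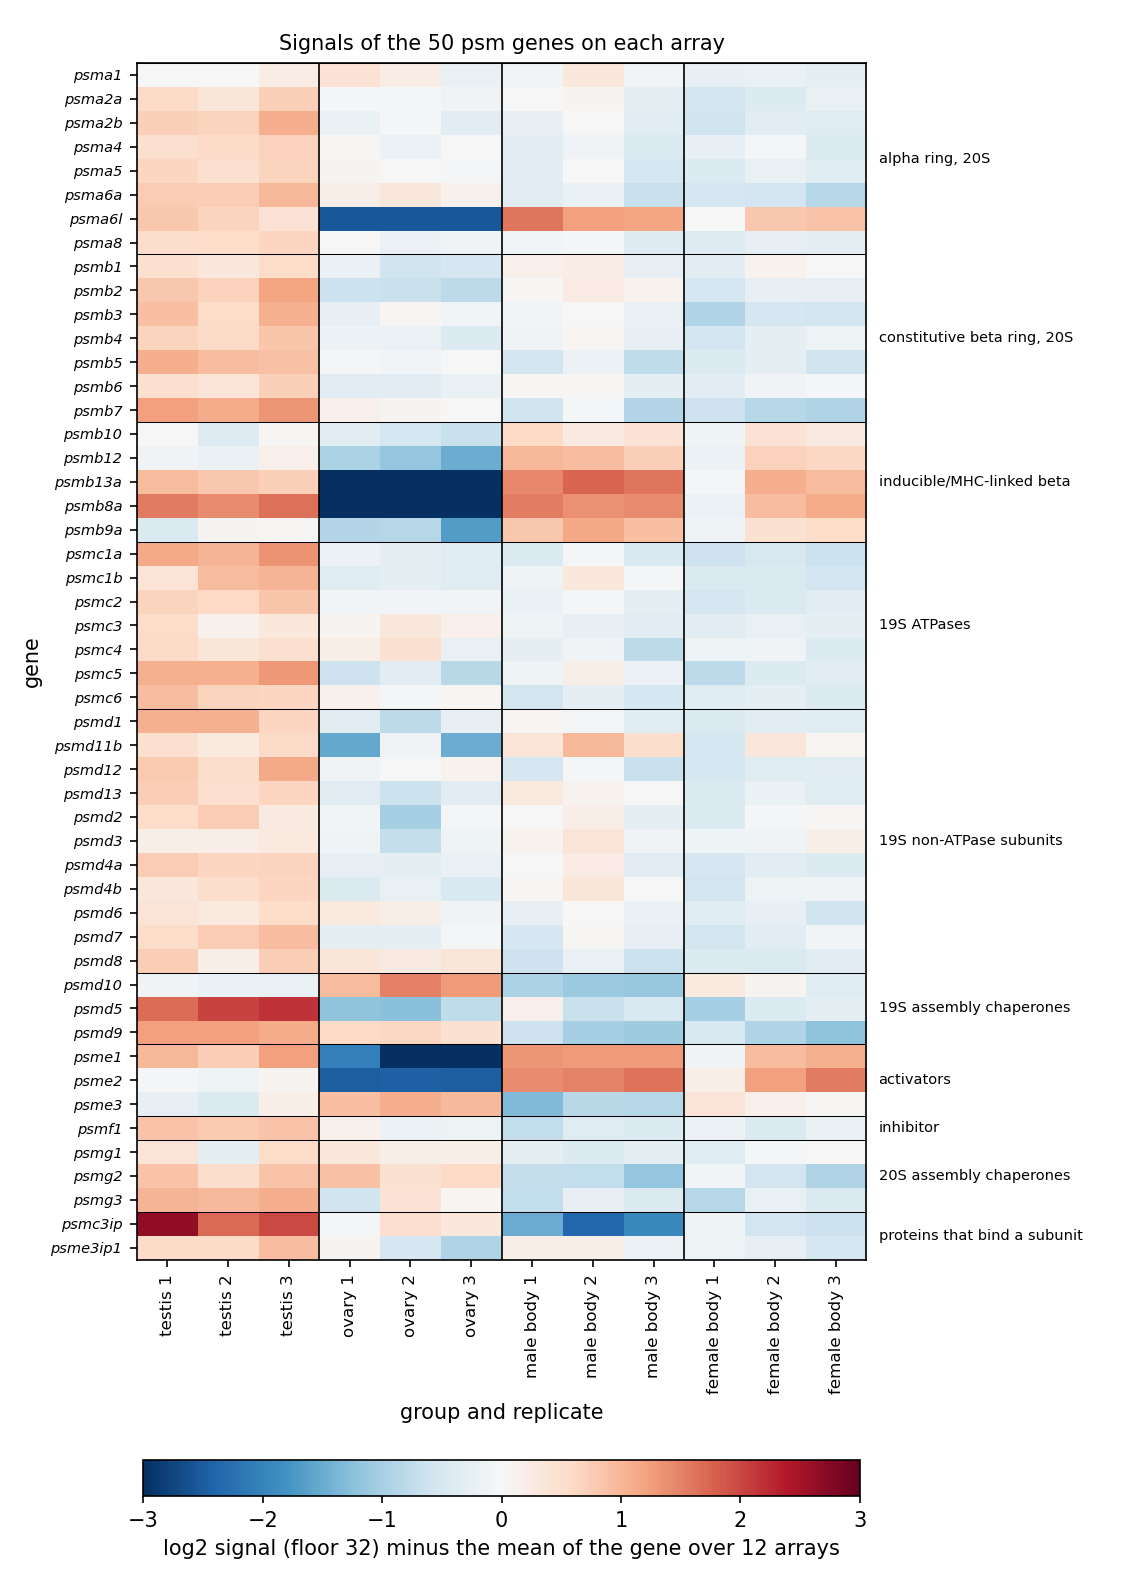
Log2 signal of each gene (rows, by class) on each of the 12 arrays (columns, by group and replicate), minus the mean of that gene over the arrays and with signals below 32 set to 32; red is above and blue below the mean. Testis columns are red for most rows, with the highest group mean for 39 of 50 genes, a count not made over all genes. The inducible and MHC-linked beta subunits, psma6l, psme1 and psme2 are blue in ovary.

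In testis against ovary, 40 of the 50 genes were higher, where 40.3% of all 8355 genes tested were called higher, and 2 were lower, where 28.1% were called lower. The median log2 difference of the 50 genes was 0.92, against 0.26 over all genes. In testis against male body, 36 genes were higher beside a background of 35.6%, and 6 were lower beside 29.3%, with a median of 0.78 against 0.06. The male body and female body differed in few of these genes. None was called higher in the male body, where the background was 15.3%, and 3 were lower, where it was 16.2%. At an unadjusted p under 0.05 with limma 9 were higher, beside 2158 of all 8645 genes. A plain 2-sample test on linear signals without a floor called 0 of the 50, but only 16 of the 8645 genes higher and 6 lower. In ovary against female body, 11 genes were higher and 8 lower, beside backgrounds of 33.7% and 26.7%, with a median of 0.20 against 0.19, and 7 were higher without ovary 1, ovary 2 or female body 2.

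The counts in testis against ovary depended on how the arrays were scaled. When each array was centred on its median signal instead of its trimmed mean, the median of all genes moved to -0.35 and that of the 50 genes to 0.12, and 11 genes were higher and 7 lower, beside 23.0% and 43.1% of all genes. Quantile normalization gave medians of 0.03 and 0.96, with 42 higher and 2 lower beside 33.8% and 32.7%. The members lay above the median of all genes by 0.66 in the deposited scaling, by 0.94 after quantile normalization and by 0.47 after centring. In ovary against female body the split of 11 higher and 8 lower became 35 and 6 after centring, where 53.3% and 18.3% of all genes were called, and 10 and 10 after quantile normalization, where 38.7% and 22.9% were. In testis against male body it was 35 and 6 after centring, beside 33.7% and 31.5%, and 34 and 6 after quantile normalization, beside 34.7% and 28.1%.

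**Figure D2:**
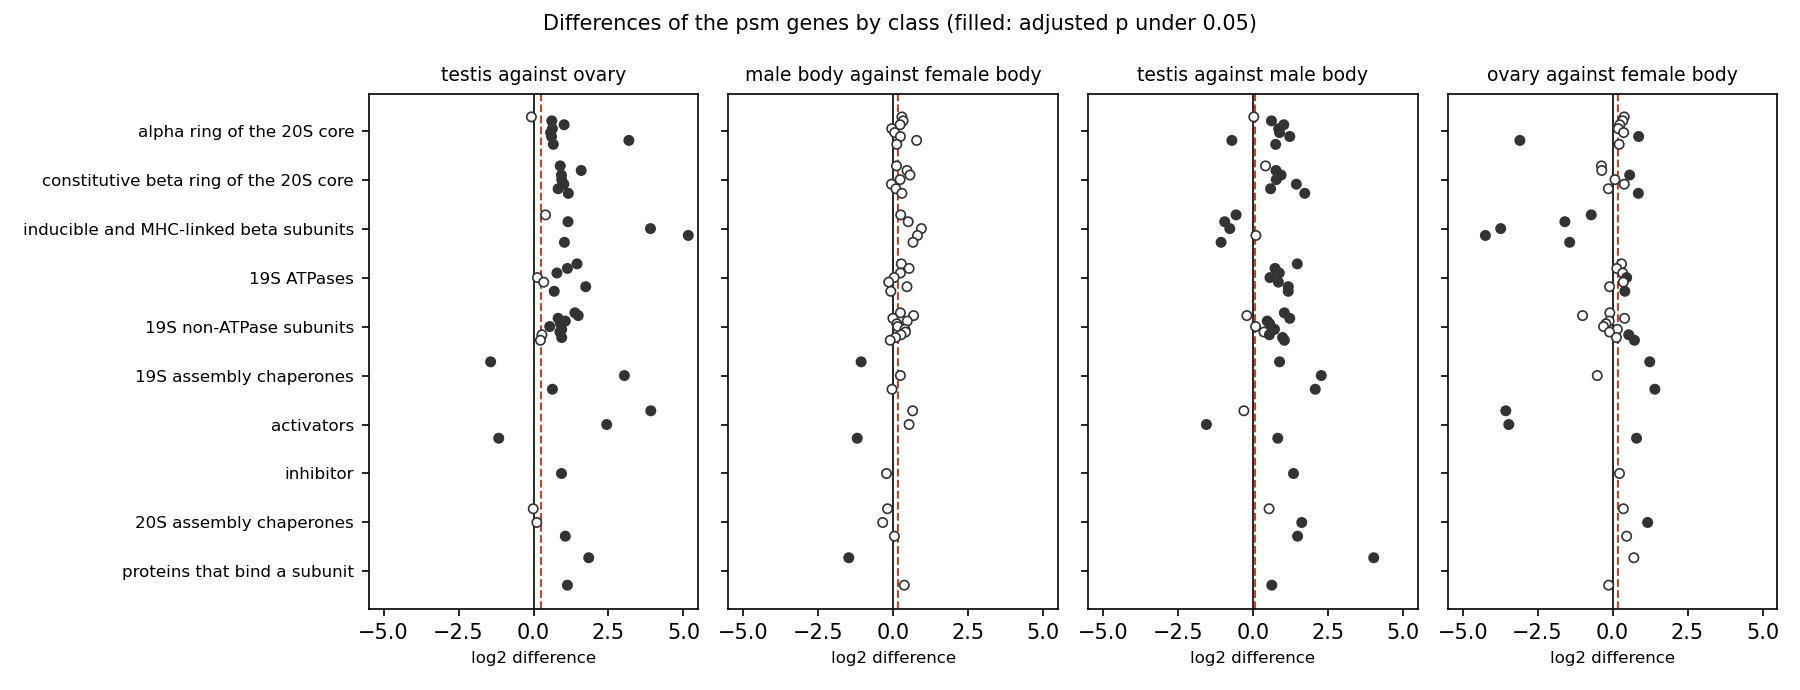
Log2 difference (horizontal axis) of each gene by class (rows) in the 4 comparisons; filled points have an adjusted p under 0.05, the solid line marks 0 and the dashed line the median of all genes. Most genes of the core and cap lie right of both lines in testis against ovary and testis against male body, with class medians from 0.56 to 0.94, and near 0.24 in male body against female body with no filled point.

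The alpha ring closes and opens the core. Of its 8 genes, 7 were higher in testis than in ovary, beside 40.3% of all genes, with a median log2 difference of 0.62. The 1 not called was psma1 (-0.07 ± 0.18, SE). The gene psma8 gave signals of 4382, 4468 and 4777 in testis, 3074, 2681 and 2851 in ovary, 2858, 2908 and 2325 in male body and 2325, 2562 and 2515 in female body. All testis arrays lay above all others, while male body overlapped with both ovary and female body. The difference was 0.66 ± 0.10 against ovary (adjusted p = 0.0008) and 0.76 ± 0.13 against male body (adjusted p = 0.0019), and after median centring the value against ovary was -0.14 with no call.

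The alpha gene psma6a had its largest differences between gonads and bodies. Its signals were 1659, 1819.6 and 1565 in ovary and 1012, 963 and 793 in female body, a difference of 0.87 ± 0.17 (adjusted p = 0.0043). With the deposited scaling it was the 1 alpha gene called higher in ovary than in female body, beside 33.7% of all genes. After median centring 7 of the 8 alpha genes were, beside 53.3%. The testis signals of psma6a were 2430.3, 2381 and 2852, above the ovary by 0.60 ± 0.12 (adjusted p = 0.0037), which became -0.20 with no call after median centring.

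Its relative psma6l behaved unlike the rest of the ring. It had 326, 296 and 252 in testis, 4.8, 5.2 and 5.8 in ovary, 569.5, 435 and 421 in male body and 184, 328 and 338 in female body. The ovary arrays were all below the floor, so that testis was at least 9.05-fold above ovary (adjusted p = 1.3e-05) and ovary at least 8.54-fold below female body (adjusted p = 0.00024). Testis was below male body (-0.70 ± 0.20, adjusted p = 0.019), a call that was lost without testis 3 (adjusted p = 0.056) or without male body 1 (adjusted p = 0.060).

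All 7 genes of the constitutive beta ring were higher in testis than in ovary, beside 40.3% of all genes. Their differences were 0.82 to 1.59 on the log2 scale. The caspase-like subunit psmb6 had 3206, 3017 and 3810.0 in testis, 1824, 1833 and 2005 in ovary, 2364, 2355 and 1927 in male body and 1839, 2146 and 2268 in female body. The trypsin-like subunit psmb7 had 6149, 5688 and 6556 in testis, 2891, 2749.5 and 2576 in ovary, 1738, 2567 and 1422 in male body and 1711, 1436 and 1401 in female body. The chymotrypsin-like subunit psmb5, the site that most proteasome inhibitors block, had 2139.6, 1906 and 1832 in testis, 964, 950.4 and 1004 in ovary, 686, 893 and 592 in male body and 754, 827 and 659 in female body. For each of the 3 catalytic genes the testis arrays lay above every other array, a separation not counted over all genes.

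The testis excess over ovary was 1.76-fold for psmb6 (log2 0.82 ± 0.12, adjusted p = 0.00084), 2.24-fold for psmb7 (1.16 ± 0.10, adjusted p = 6.1e-05) and 2.01-fold for psmb5 (1.01 ± 0.11, adjusted p = 0.00022). Over male body it was 1.51-fold, 3.31-fold and 2.74-fold, all called. After median centring the differences from ovary were 0.02, 0.36 and 0.21 and none was called, while those from male body remained called at 0.50, 1.64 and 1.36. Of the 3, psmb7 was called higher in ovary than in female body (0.86 ± 0.16, adjusted p = 0.0035), and after centring all 3 were, at 0.56 for psmb6, 1.56 for psmb7 and 1.09 for psmb5. None of the 3 was called between the bodies, where the differences were 0.09 ± 0.18, 0.29 ± 0.25 and -0.06 ± 0.22. Among the structural beta genes psmb2 had the largest difference from ovary, 1.59 ± 0.15 (adjusted p = 0.0001).

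The inducible and MHC-linked beta subunits followed another order. Of these 5 genes, 4 were highest in male body and all 5 were lowest in ovary, counts not made over all genes. In testis against ovary 4 were higher, beside 40.3% of all genes. In testis against male body 4 were lower, beside 29.3%, and in ovary against female body all 5 were lower, beside 26.7%. After median centring 2 were higher in testis against ovary, beside 23.0%. Then 4 were lower in testis against male body, beside 31.5%, and 3 in ovary against female body, beside 18.3%. In the gene order of the RefSeq annotation psmb13a, psmb8a, psmb12 and psmb9a stand next to each other with 0 protein-coding genes between neighbours. In fish these genes belong to the MHC class I region.

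The gene psmb8a, the counterpart of psmb5 in the immunoproteasome, had the largest difference of all 50. Its signals were 1365, 1229.5 and 1448 in testis, 38.2, 43.9 and 24 in ovary, 1342, 1194 and 1236 in male body and 412, 884 and 1003 in female body. The ovary arrays stood apart from all others, and 1 of them was below the floor. Testis was 35.6-fold above ovary (log2 5.16 ± 0.21, adjusted p = 2.8e-06) and ovary was far below female body (-4.24 ± 0.39, adjusted p = 0.00017). After median centring the log2 differences were 4.44 and -3.61, and at a floor of 100, above all 3 ovary arrays, they were 3.75 and -2.84, so the size depends on the floor. Testis and male body differed by 0.10 ± 0.13 (adjusted p = 0.55).

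Its neighbour psmb13a showed a similar contrast. It had 520.4, 474 and 439.6 in testis, 20.9, 20.3 and 27.4 in ovary, 726, 904 and 821 in male body and 258, 569 and 518 in female body. All ovary arrays were below the floor, which made testis at least 14.9-fold higher than ovary (adjusted p = 5.8e-06) and ovary at least 13.2-fold lower than female body (adjusted p = 0.0002). Testis was below male body without overlap (-0.77 ± 0.16, adjusted p = 0.0043).

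The other 3 genes of the class kept clear signals in ovary. The gene psmb12 had 656, 618 and 787 in testis, 367, 317 and 252 in ovary, 1418, 1353 and 1168 in male body and 633, 1153 and 1087 in female body. The immunoproteasome gene psmb9a, counterpart of psmb6, had 295, 419.8 and 404 in testis, 216, 218 and 125 in ovary, 694, 892 and 738 in male body and 363, 544 and 582 in female body. The counterpart of psmb7, psmb10, had 759, 579 and 787 in testis, 599, 529 and 479.5 in ovary, 1160.4, 924 and 1032 in male body and 697, 1026 and 924 in female body. The male body arrays of psmb12 and psmb9a lay above all others, whereas those of psmb10 overlapped with female body and its testis arrays overlapped with ovary.

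Against ovary, testis was higher for psmb12 (1.15 ± 0.20, adjusted p = 0.0018) and psmb9a (1.03 ± 0.29, adjusted p = 0.016), and psmb10 was not called (0.40 ± 0.18, adjusted p = 0.087). These values were 0.35, 0.23 and -0.41 after median centring, with none called. Without testis 2 or testis 3 the psmb9a call was lost as well (adjusted p = 0.062 and 0.059). Against male body, testis was lower for psmb12 (-0.94), psmb9a (-1.06) and psmb10 (-0.56), all 3 called with the deposited scaling and after median centring. The psmb10 call was lost without testis 2, male body 1 or male body 3 (adjusted p = 0.080, 0.085 and 0.070). Against female body, ovary was lower for psmb12 (-1.59 ± 0.29), psmb9a (-1.43 ± 0.32) and psmb10 (-0.71 ± 0.21), all called with the deposited scaling. The psmb10 call was lost without ovary 2, ovary 3, female body 2 or female body 3. After centring psmb10 was -0.01 and psmb9a -0.73 (adjusted p = 0.13), both with no call.

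In each of these 5 genes the lowest female body signal was that of female body 1. The same array had the lowest sum of 7 leukocyte markers among the female bodies, 11502 against 18416 and 19581 in female body 2 and 3. The leukocyte sum was 6483 to 7405 in testis, 494 to 1177 in ovary, with the granulocyte marker mpx at the floor, and 26702 to 31491 in male body. The sums of 3 blood, 3 liver and 6 muscle markers were also lowest in ovary, at 218 to 361, 107 to 128 and 276 to 349, and lowest among the female bodies in female body 1. Their ranges were 7633 to 10429, 2415 to 5905 and 1283 to 1632 in testis, 21991 to 45147, 54511 to 70958 and 160392 to 231630 in male body, and 10037 to 22949, 40992 to 46822 and 92853 to 187109 in female body. The part of none of these cell types in the differences was tested. Male body was above female body for psmb8a by 0.81 ± 0.33 (adjusted p = 0.094) and for psmb13a by 0.94 ± 0.32 (adjusted p = 0.056), and without female body 1 by 0.42 and 0.58. Without female body 3 both were called, together with psmb9a.

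**Figure D3:**
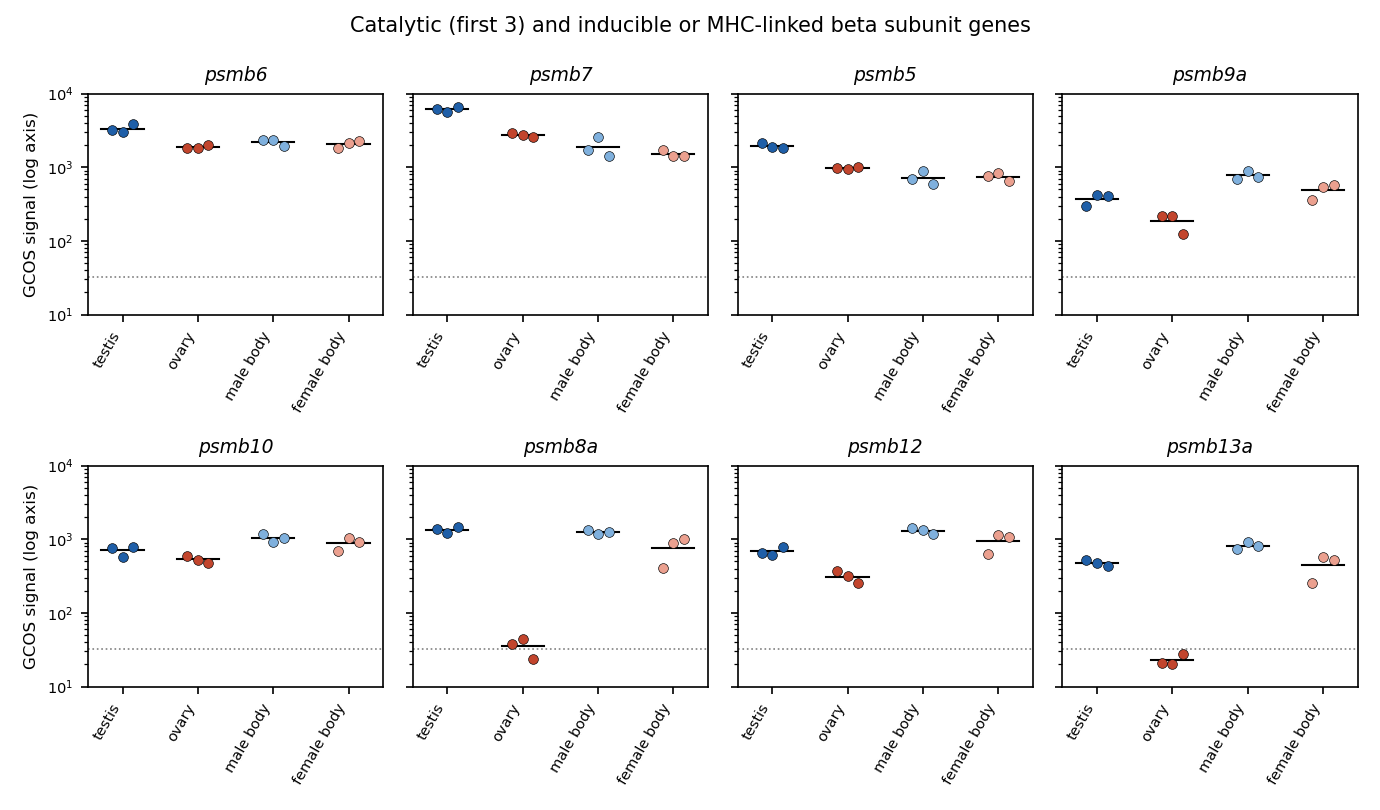
GCOS signal (log axis) of the 3 catalytic beta subunit genes and the 5 inducible or MHC-linked genes in testis, ovary, male body and female body; points are arrays, bars are means of 3 arrays and the dotted line is the floor of 32. Ovary arrays of psmb8a and psmb13a lie at 20.3 to 43.9, while psmb5, psmb6 and psmb7 stay between 950.4 and 2891 in ovary.

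The ATPase ring of the 19S cap unfolds the substrate. All 7 of its genes were higher in testis than in male body, by 0.57 to 1.48, beside 35.6% of all genes. Of the 7, 5 were higher in testis than in ovary, beside 40.3%, with psmc3 (0.13 ± 0.14) and psmc4 (0.34 ± 0.18) not called. The largest difference from ovary was that of psmc5, with 3399.8, 3371 and 3972 in testis and 1048, 1271 and 909 in ovary (1.74 ± 0.15, adjusted p = 6.6e-05). Ovary was above female body for psmc3 (0.47 ± 0.15, adjusted p = 0.030) and psmc6 (0.41 ± 0.15, adjusted p = 0.043), both lost when any 1 ovary array or female body 2 was left out and that of psmc6 also without female body 3. Both calls were lost too with a replicate block that pairs gonad and body arrays (adjusted p = 0.068 and 0.11). The bodies differed in none of the 7, with differences from -0.15 to 0.53.

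The other cap subunits bind ubiquitin chains, remove them or hold the lid together. Of 11 genes, 9 were higher in testis than in ovary, beside 40.3% of all genes, with a median of 0.90. Against male body 8 were higher in testis, beside 35.6%, with a median of 0.56. The scaffold gene psmd1 had 2852, 2871 and 2142 in testis and 1099, 784 and 1145 in ovary (1.38 ± 0.20, adjusted p = 0.00063). The largest class difference was that of the lid gene psmd11b, 1.49 ± 0.39 (adjusted p = 0.013), where ovary 2 had 350.2 and the other ovary arrays 131 and 135. Its testis arrays, 462 to 559.7, did not overlap with ovary, and the call was lost without testis 3 and after median centring. The 2 probe sets of the lid gene psmd12 gave 0.82 and 2.55 in testis against ovary, both called with the deposited scaling. The call of the brightest, at 0.82, was lost after median centring.

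Without the inducible class, the core and cap comprised 33 genes. Of these, 28 were higher in testis than in ovary and none lower, beside 40.3% and 28.1% of all genes, with a median of 0.89. The counts were the same at an unadjusted p under 0.05 with limma, beside 3519 higher and 2445 lower of all 8355 genes. After median centring 5 were higher and 3 lower, beside 23.0% and 43.1%, with a median of 0.09. Against male body 27 were higher in testis and 1, psma6l, lower, beside 35.6% and 29.3% of all genes. After centring 26 were higher and 1 lower, beside 33.7% and 31.5%. In male body against female body none of the 33 was called by limma, beside 15.3% of all genes higher and 16.2% lower. At an unadjusted p under 0.05 with limma 6 were higher, beside 2158 of all 8645 genes. The median was 0.24 against 0.15 over all genes. Ovary was above female body for 7 and below it for 1, beside 33.7% and 26.7% of all genes. These were 27 and 1 after centring, beside 53.3% and 18.3%, and 5 and 3 after quantile normalization, beside 38.7% and 22.9%.

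The chaperones of cap assembly, which hold groups of ATPases until the ring closes, differed from each other. The gene psmd5 had 1284, 1649.9 and 1800.4 in testis, 174, 167 and 239 in ovary, 449.6, 253 and 291 in male body and 202, 301 and 333 in female body. The testis arrays lay far above all others, 8.19-fold above ovary (log2 3.03 ± 0.21, adjusted p = 2.5e-05) and 4.86-fold above male body (2.28 ± 0.25, adjusted p = 0.00018). Ovary against female body was not called (-0.51 ± 0.30, adjusted p = 0.17).

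The gene psmd9 was high in both gonads. It had 1288, 1286 and 1196 in testis, 839, 846 and 752 in ovary, 360.2, 276 and 262 in male body and 402, 296 and 238 in female body. Testis was 4.24-fold above male body (log2 2.08 ± 0.17, adjusted p = 4.7e-05) and ovary 2.66-fold above female body (1.41 ± 0.24, adjusted p = 0.0024). Testis was above ovary by 0.63 ± 0.12 (adjusted p = 0.0027), a value of -0.17 with no call after median centring.

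The gene psmd10, whose product gankyrin was first described as an oncoprotein in human liver cancer, was highest in ovary. It had 828, 779.5 and 767 in testis, 1725, 2561 and 2178 in ovary, 463, 415 and 406 in male body and 1107, 946 and 693 in female body. Testis was lower than ovary (log2 -1.43 ± 0.16, adjusted p = 0.00023) and higher than male body by 0.89 ± 0.15 (adjusted p = 0.0014). Male body was lower than female body (-1.07 ± 0.23, adjusted p = 0.014), which was not called without male body 3 (adjusted p = 0.056) or without female body 2 (adjusted p = 0.053). The order of the female bodies, 1107, 946 and 693, was also that of their oocyte marker sums, 61847, 42048 and 29141, and the part of oocyte RNA in the body difference was not tested.

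The activators split into the same opposed patterns. The gene psme1 had 1445, 1211 and 1684 in testis, 175, 77.5 and 63.4 in ovary, 1813, 1748 and 1742 in male body and 676, 1396 and 1508 in female body. The gene psme2, whose product forms the interferon-inducible activator ring with that of psme1, had 671, 612 and 731 in testis, 122, 125 and 123 in ovary, 1833, 1936 and 2133 in male body and 774, 1598 and 2032 in female body. Both were low in ovary without overlap with any other group, and in both female body 1 was the lowest female body.

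Testis was 15.1-fold above ovary for psme1 (log2 3.91 ± 0.39, adjusted p = 0.00011) and 5.42-fold for psme2 (2.44 ± 0.17, adjusted p = 2.5e-05). Ovary was below female body for psme1 (-3.56 ± 0.47, adjusted p = 0.00083) and for psme2 (-3.46 ± 0.36, adjusted p = 0.00028). The partners differed in testis against male body, where psme2 was lower (-1.55 ± 0.14, adjusted p = 6.9e-05) and psme1 was not called (-0.30 ± 0.15, adjusted p = 0.13). Whether this difference between the genes exceeded their errors was not tested.

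The nuclear activator psme3, which acts without ubiquitin and is not induced by interferon, had the reverse order. It had 1252, 1105 and 1675 in testis, 2808, 3161 and 2940.5 in ovary, 595, 832 and 826 in male body and 1947, 1671 and 1529 in female body. Testis was lower than ovary (-1.16 ± 0.17, adjusted p = 0.00073), and male body was lower than female body (-1.20 ± 0.21, adjusted p = 0.0075). Both gonads were above their bodies, testis by 0.83 ± 0.21 (adjusted p = 0.012) and ovary by 0.80 ± 0.16 (adjusted p = 0.0050). The female body arrays again stood in the order of their oocyte marker sums, and without female body 1 the body difference was -1.11 (adjusted p = 0.018).

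The inhibitor gene psmf1, whose product binds the core, had 1014, 962 and 1009.7 in testis, 605, 494 and 503 in ovary, 333, 430.4 and 420.0 in male body and 495, 413 and 483 in female body. Testis exceeded ovary 1.87-fold (log2 0.90 ± 0.14, adjusted p = 0.0010) and male body 2.54-fold (1.34 ± 0.16, adjusted p = 0.00029), and the difference from ovary was 0.10 with no call after median centring.

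The psmg genes encode chaperones that put the alpha ring together. The gene psmg2 had 1626, 1293 and 1618 in testis, 1629, 1235 and 1352 in ovary, 541, 536 and 399.6 in male body and 845, 595 and 478 in female body. It was a gene of both gonads, 3.09-fold above male body in testis (adjusted p = 0.00021) and 2.25-fold above female body in ovary (adjusted p = 0.0057), with 0.11 ± 0.16 between testis and ovary (adjusted p = 0.56), or -0.69 and called lower after median centring (adjusted p = 0.011). Its partner psmg1 had 827, 514 and 919.6 in testis and 782, 714 and 714 in ovary. Signals of psmg1 were 523, 471 and 515 in male body and 488, 617 and 632 in female body. For this brightest probe set none of the 4 comparisons was called with the deposited scaling and no block. The second probe set of psmg1 was called higher in testis than in male body (0.77). After median centring the brightest was called in testis against ovary (-0.81, adjusted p = 0.041) and in ovary against female body (1.06, adjusted p = 0.0027). With the replicate block it was called in testis against male body (0.54, adjusted p = 0.044).

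The third chaperone gene, psmg3, had 1571, 1525 and 1648 in testis, 512, 1054 and 810.0 in ovary, 465, 661 and 579.7 in male body and 428, 668 and 576 in female body. Testis was above every array of the other groups, by 1.06 ± 0.26 against ovary (adjusted p = 0.0085) and by 1.49 ± 0.17 against male body (adjusted p = 0.0002). After median centring the difference from ovary was 0.26 with no call.

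**Figure D4:**
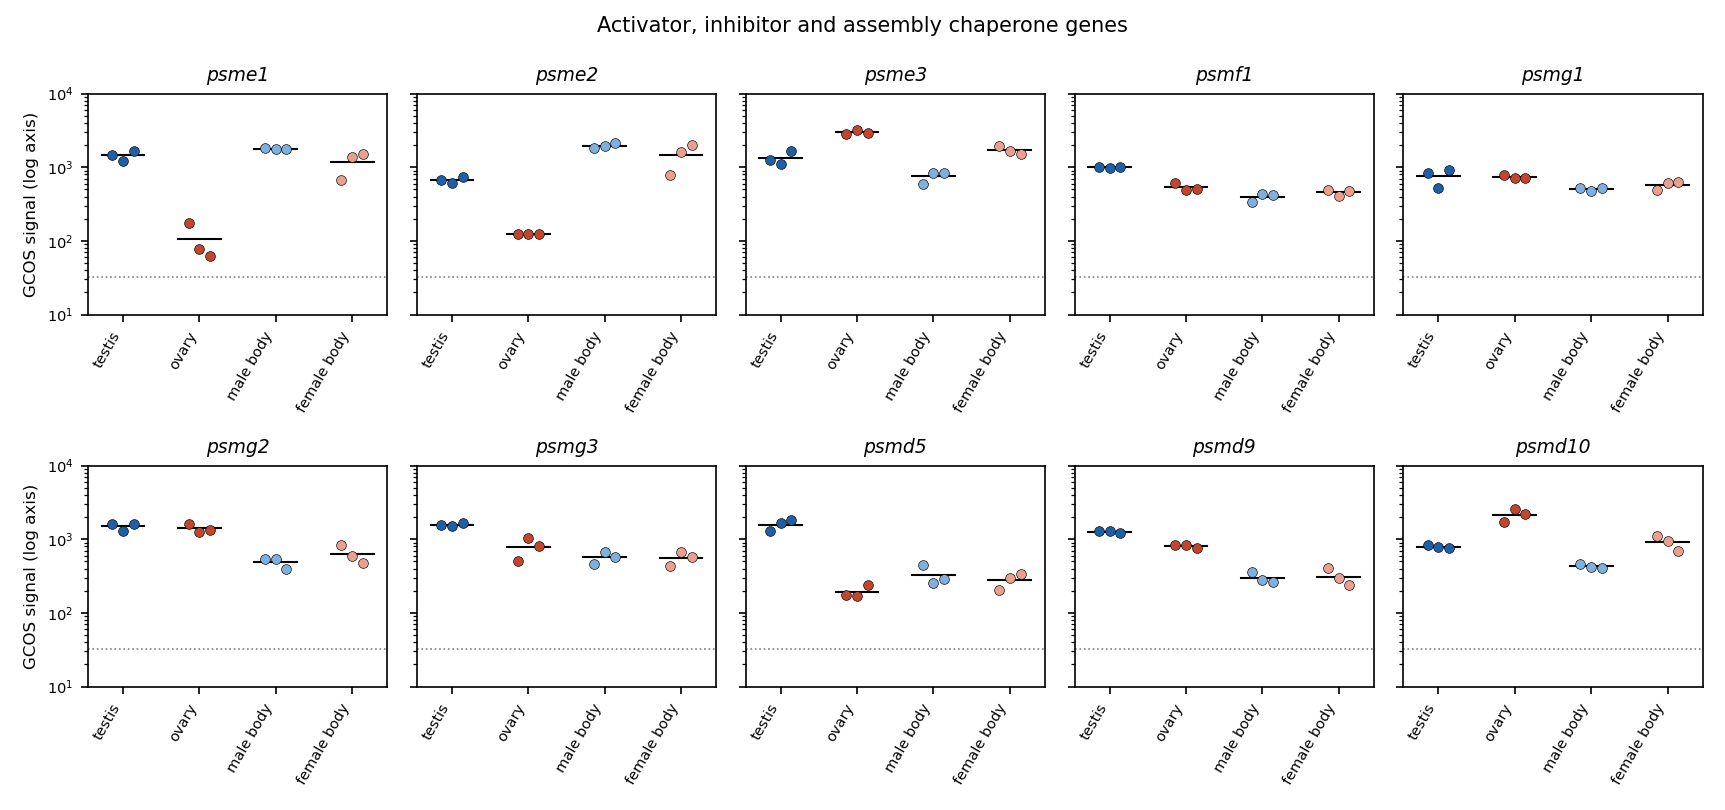
GCOS signal (log axis) of the genes for activators (psme), the inhibitor (psmf1), chaperones of core assembly (psmg) and of cap assembly (psmd5, psmd9, psmd10) in testis, ovary, male body and female body; points are arrays, bars are means of 3 arrays and the dotted line is the floor of 32. Ovary is the lowest group for psme1 and psme2, at 63.4 to 175, and the highest for psme3 and psmd10, at 1725 to 3161.

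The 2 genes for partners of a subunit were higher in testis. The product of psmc3ip, known as HOP2, promotes pairing of homologous DNA in meiosis. Its signals were 1031, 528 and 642 in testis, 161, 234 and 202 in ovary, 57.8, 28.4 and 43.1 in male body and 148, 110.4 and 105 in female body. The 4 groups did not overlap. Testis was above ovary by 1.84 ± 0.29 (adjusted p = 0.0011) and above male body by 4.03 ± 0.33 (adjusted p = 4.6e-05), and male body was below female body (-1.48 ± 0.29, adjusted p = 0.012). That last difference rested on signals near the floor and was -0.26 with no call (adjusted p = 0.18) at a floor of 100. The female body arrays of psmc3ip also stood in the order of their oocyte marker sums. The part of oocyte RNA in its body difference was not tested. A second probe set of psmc3ip, with signals of 2.1 to 53.1 on the 12 arrays, gave -0.24 in testis against male body and 0.24 between the bodies with no call, and was not tested against ovary. The gene psme3ip1 was higher in testis by 1.13 ± 0.28 against ovary and by 0.63 ± 0.19 against male body, and all 4 of its probe sets were called in both. The call of its brightest probe set against ovary was lost after median centring. That against male body was lost after quantile normalization, in the plain 2-sample test and without testis 3 or male body 3.

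The gonad-body difference was also set between the sexes, as the testis minus male body difference less the ovary minus female body difference. It was higher in males for 26 of the 50 genes and lower for none, where 25.0% and 13.3% of all 8705 genes were called. No gene was lower at an unadjusted p under 0.05 with limma, beside 1569 of 8705. This fit took the 12 arrays as independent, although gonad and body arrays of 1 fish pair. With a block within each sex, chosen after the data were seen, 19 genes were higher and none lower, beside 2271 and 1250 of 8705. Without a block the median of this sex difference was 0.69, against 0.14 over all genes. Oocyte markers summed to 29141 to 61847 in female body, against 70607 to 78062 in ovary. Male germ cell markers summed to 241 to 318 in male body, against 37470 to 39216 in testis. The part of oocyte RNA in the sex difference was not tested. Leaving out testis 3 gave 16 genes higher, beside 1965 of 8705, and leaving out male body 3 gave 17, beside 1942 of 8685. After median centring 7 genes were higher and 4 lower, beside 13.5% and 31.2% of all genes, and the medians were -0.10 and -0.45. After quantile normalization 30 genes were higher and none lower, beside 22.1% of all genes higher and 1743 of 8705 lower, with medians of 0.87 and -0.06. It was largest for psmb8a (4.34 ± 0.41, adjusted p = 1.1e-05), psmc3ip (3.32 ± 0.45, adjusted p = 0.00016), psme1 (3.26 ± 0.52, adjusted p = 0.00051) and psmb13a, where with ovary at the floor it was at least 2.96 (adjusted p = 0.00014). At a floor of 100 these values were 2.94, 2.1, 2.92 and 1.31, and psmd5 stood at 2.80, so their order depended on the floor. With the deposited scaling the sex difference was small and not called for psme3 (0.04 ± 0.27, adjusted p = 0.93), psmb10 (0.15 ± 0.27, adjusted p = 0.71) and psmd10 (-0.35 ± 0.28, adjusted p = 0.35). After median centring psmd10 was among the 4 genes called lower.

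**Figure D5:**
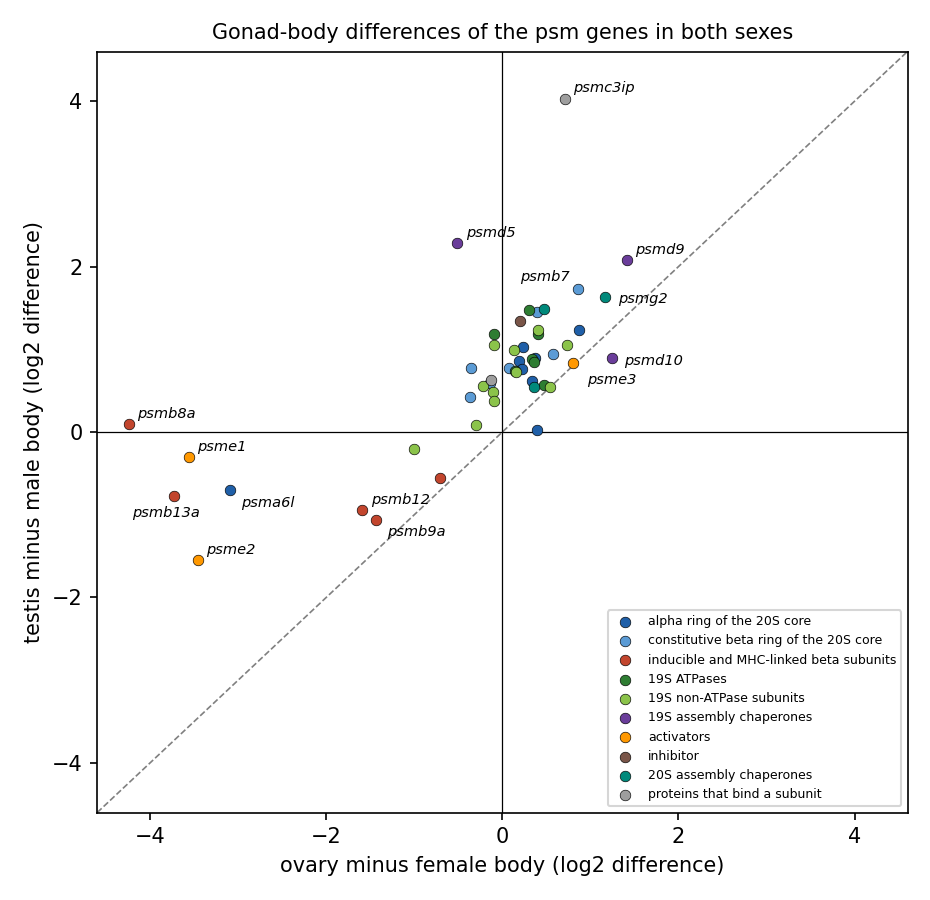
Testis minus male body (vertical axis) against ovary minus female body (horizontal axis), both as log2 differences, for the 50 genes coloured by class; the dashed line marks equal differences in both sexes. Most genes lie above the line, with a median sex difference of 0.69, and psmb8a is farthest left at -4.24 in females and 0.10 in males.

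Genes that work with the proteasome outside the naming rule were read from a list, of which 22 were on the array. In testis against ovary 11 were higher and 5 lower, beside the 40.3% and 28.1% of all genes, with a median of 0.31. After median centring 5 were higher and 10 lower, beside 23.0% and 43.1%, with a median of -0.49. The chaperone gene pomp, which guides the beta ring, had 5376, 5007 and 5475.5 in testis and 2286, 2259 and 2018 in ovary (1.27 ± 0.10, adjusted p = 3.9e-05). The cap gene sem1 was higher by 1.22 ± 0.12 and usp14, a ubiquitin protease of the cap, by 1.31 ± 0.18, and after centring by 0.42 and 0.51 with no call. The largest rise was that of ufd1l, a partner of the segregase vcp, with 2956, 3369 and 3068.5 in testis and 658, 634 and 582 in ovary (2.33 ± 0.12, adjusted p = 6.2e-06). The largest fall was that of zfand2a, a zinc finger gene of the stress response, with 294, 343 and 338 in testis and 1814, 1397 and 1574 in ovary (-2.29 ± 0.15, adjusted p = 2.2e-05).

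Of the same 22 genes, 13 were higher and 1, zfand5b, was lower in testis than in male body, beside 35.6% and 29.3% of all genes, with ufd1l again at the upper end (2.11 ± 0.16, adjusted p = 3.2e-05) and zfand5b at -0.83 ± 0.17 (adjusted p = 0.0042). Between the bodies none was higher by limma, beside 15.3% of all genes, with 3 at an unadjusted p under 0.05, beside 2158 of 8645. Of the 22, 4 were lower, beside 16.2%, among them zfand2a (-1.05 ± 0.29, adjusted p = 0.031). In ovary against female body 7 were higher and none lower, beside 33.7% and 26.7%. At an unadjusted p under 0.05 with limma 1 was lower, beside 2473 of 8434. After centring 17 were higher, beside 53.3%. In this comparison zfand2a stood at 1.14 ± 0.24 (adjusted p = 0.0055). The import factor akirin2, which carries proteasomes into the nucleus in human cells, had 2089, 2228 and 2036.5 in testis, 3335.5, 3168 and 3260 in ovary, 999.7, 992 and 1053 in male body and 2221, 1654 and 1542 in female body. Like psme3 and psmd10 it was lower in testis than in ovary (-0.62 ± 0.09) and lower in male body than in female body (-0.81 ± 0.19). As for those genes, its female body arrays stood in the order of their oocyte marker sums. The part of oocyte RNA in its body difference was not tested.

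Genes of antigen presentation, the process that immunoproteasomes supply with peptides, were read in the same way, with 11 on the array. In testis against ovary 3 were higher and 4 lower of 10 tested, beside 40.3% and 28.1% of all genes. In testis against male body none was higher and 7 were lower, beside 35.6% and 29.3%. None was higher at an unadjusted p under 0.05 with limma either, beside 3250 of 8672. In ovary against female body 2 were higher and 5 lower of 10 tested, beside 33.7% and 26.7%. After median centring 3 were higher and 6 lower in testis against ovary, beside 23.0% and 43.1% of all genes. The counts were 0 and 8 in testis against male body, beside 33.7% and 31.5%. In ovary against female body they were 4 and 3, beside 53.3% and 18.3%. Male body was above female body for 2 and below it for 1, beside 15.3% and 16.2%. The MHC class I light chain b2m had 5733, 5767 and 7543 in testis, 494, 782.5 and 475 in ovary, 11100.5, 12043 and 13215 in male body and 5744.5, 7905 and 9384 in female body. As for psmb12, all groups but testis and female body were apart, with testis above ovary by 3.47 ± 0.22 (adjusted p = 1.8e-05). The class I gene mhc1zba was above ovary in testis by 3.56 ± 0.37 (adjusted p = 0.00014), and ovary was below female body (-4.80 ± 0.24, adjusted p = 1.1e-05). The interferon response factor irf1b was below male body in testis (-2.94 ± 0.27, adjusted p = 7.8e-05) and above female body in male body by 1.62 ± 0.39 (adjusted p = 0.022). The aminopeptidase gene erap1b, which trims peptides for class I, differed the other way, by -2.68 ± 0.16 in testis against ovary (adjusted p = 1.4e-05). In ovary against female body erap1b stood at 1.03 by limma (adjusted p = 0.013), and irf1a was highest of the list at 1.06.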

How the data were processed

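RNA of 12 samples (4 groups of 3) was measured on Affymetrix Zebrafish Genome arrays. The deposited intensities are the authors' output of GCOS 1.2, a robust mean of match minus mismatch probes on a linear scale. The values showed the same mean on each array after trimming 2% at each end. Other algorithms named in the submitters' notes were not used here. After removal of 115 controls from 15617 probe sets, 15502 were analysed, with 1 gene symbol for 10795, several for 135 and none listed for 4572. All 61 probe sets of the psm genes carry the symbol that RefSeq (GRCz12tu) gives for their gene ID.

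Signals were raised to at least 32 before taking log2, and a probe set that never exceeded 32 in a fit was left untested. Pairwise fits used 6 arrays, and the sex difference of the gonad-body contrast on all 12, with limma 3.58.1 in R 4.3.3 (lmFit, eBayes with an intensity trend). Tests were two-sided with Benjamini-Hochberg adjustment over every probe set tested. Errors are standard errors. Folds are 2 raised to the log2 difference and lower bounds where a group lies at the floor on all arrays. Genes named with values are the catalytic, inducible and MHC-linked beta subunits, psma8, the activators, inhibitor and assembly factors. Per pair they also include the 5 largest called differences in each direction without overlap. The genes psma1, psmb2, psmc3 to psmc6, psmd1, psmd11b, psmd12, psme3ip1, pomp, sem1, usp14, akirin2 and b2m were chosen after their values were seen. The members and lists were chosen with earlier results of these data known.

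Alternatives were floors of 100 or none, quantile normalization, median centring, a mean signal of at least 200, no intensity trend, 1 fit of all arrays, a plain 2-sample test, a replicate block and leaving out each array. Deviations of gonad and body arrays of the same number were correlated (0.347 to 0.387 in males, 0.229 to 0.361 in females), and per the labels both came from 1 individual, so these numbers pair. Between the sexes the same number stands for different fish. There the correlations were -0.088 to 0.033 for gonads and 0.068 to 0.206 for bodies. Body arrays of different numbers gave -0.139 to 0.061 between the sexes. On simulated data with 100 changed probe sets of each size, limma called 41% of log2 changes of 1 and 85% of changes of 2 for testis against ovary. For male body against female body it called 5% and 67%. Far more genes were called on the real arrays, which makes the adjusted threshold less strict, so these shares do not carry over. Tables were made with Python 3.11.15 and pandas 2.3.3 and figures with matplotlib 3.10.9.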

Additional observations from a re-analysis of the deposited data

Results flagged for a closer look

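The interaction test of limma over 12 arrays asks whether the gonad-body difference differs between the sexes. It called 13 of the 22 genes named by the rule, all higher in males. Of all 8705 genes 25.0% were called higher and 13.3% lower. The rule takes in the largest called differences of these same arrays, so its count cannot be read against these shares. The test took the 12 arrays as independent, although gonad and body arrays of 1 fish pair. The part of oocyte RNA in the female body arrays was not tested. The differences, males minus females on the log2 scale, were 4.34 for psmb8a, 3.32 for psmc3ip, 3.26 for psme1, at least 2.96 for psmb13a, 2.80 for psmd5, at least 2.39 for psma6l and 1.91 for psme2. The others were 1.14 for psmf1, 1.07 for psmb5, 1.02 for psmg3, 0.87 for psmb7, 0.73 for psmb6 and 0.54 for psma8. In psmb8a, psmb13a, psme1, psme2 and psma6l the ovary was below the female body, and in psmd5 and psmc3ip the testis was above the male body, by 2.28 and 4.03. At a floor of 100 they were 2.94 for psmb8a, 2.1 for psmc3ip, 2.92 for psme1 and 1.31 for psmb13a. The call of psma8 was lost with the replicate number as a block (adjusted p = 0.056) and that of psma6l at a floor of 100 (0.75, adjusted p = 0.11). With a block within each sex 12 of the 13 genes kept the call and psma8 lost it (adjusted p = 0.085). Leaving out 1 array removed the call of psmb7 in 4 of 12 cases (testis 3, ovary 3, male body 1 or male body 3), that of psma8 in 8 and that of psmg3 in 9. After median centring 6 of these 13 genes lost the call: psmf1 (0.35), psmb5 (0.28), psmg3 (0.23), psmb7 (0.08), and psmb6 and psma8, which turned negative at -0.06 and -0.25. In that setting 13.5% of all genes were called higher and 31.2% lower.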

How the results depend on the processing

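The 22 genes named by the rule gave 68 calls, and those of genes named beside the rule, such as psmc3 and psmd11b, are not counted here. Of 1029 values of these calls under the alternatives other than the plain 2-sample test, 970 kept direction and call. Another 54 kept direction but lost the call and 5 reversed. The plain 2-sample test, not in this tally, lost psmc3ip, psmd10 and psme3 between the bodies. It also lost psma6l, psmb10 and psme3 in testis against male body, and psmb10 and psme2 in ovary against female body. Median centring accounted for the 5 reversals and 13 of the 54 lost calls. It gave -0.20 for psma6a, -0.14 for psma8 and -0.17 for psmd9 in testis against ovary, and -0.25 for psma8, -0.06 for psmb6 and -0.10 for the median of the members in the sex difference of the gonad-body contrast. It called 11 genes higher and 7 lower in testis against ovary, 1 higher in male body against female body, 35 higher in ovary against female body, and 7 higher and 4 lower in the sex difference. Centring brings all array medians to the same value, which raised the ovary arrays, whose median signals were the lowest. Which scaling is closer to the RNA amounts was not tested.

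In male body against female body no gene was called higher, but 1 was at a floor of 100, beside 1131 of 7683 genes. After quantile normalization 1 was, beside 1228 of 8645, and with a mean signal of at least 200 also 1, beside 1110 of 6091. A block by replicate number, which here joins different fish, gave 1, beside 1330 of 8645. In 1 fit of all 12 arrays 7 were higher, beside 1989 of 8645. The plain 2-sample test, run on linear signals without a floor, called 0 lower where limma called 3. It called only 6 of all 8645 genes lower. Leaving out 1 array gave 0 to 3 genes higher in this comparison, 3 without female body 3, beside 1744 of 8625. In ovary against female body 7 to 15 were higher. They were 7 without ovary 1, ovary 2 or female body 2, beside 2091 of 8427, 2503 of 8425 and 1990 of 8380. In the sex difference 16 to 28 were higher, 16 without testis 3 and 17 without male body 3.

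With the replicate number as a block, which pairs gonad and body arrays of 1 sex, 37 genes were higher in testis against male body, beside 3184 of 8672. In ovary against female body 9 were higher and 9 lower, beside 2959 and 2443 of 8434. In the sex difference this block also joined male and female fish of the same number and gave 23 higher, beside 2251 of 8705. A block within each sex, an alternative chosen after the data were seen, gave 19, beside 2271 of 8705. The block by replicate number removed the calls of psmc3 and psmc6 in ovary against female body. In the sex difference it removed those of psma8 (adjusted p = 0.056, or 0.085 within each sex), psmc2 and psmd13. It added calls of psmd11b in ovary against female body and psmg1 in testis against male body. It also added psmb13a in male body against female body, where the same number stands for different fish. Probe sets of 1 gene could disagree: psmf1 in ovary against female body (0.20, not called, and 0.63, higher), psmg1 in testis against male body (0.54, not called, and 0.77, higher), psmc3ip in testis against male body (-0.24, not called, and 4.03, higher), in the sex difference (-0.24 and 3.32) and between the bodies (0.24, not called, and -1.48, lower), and psmd9 (0.67, not called, and 0.93, higher) and psmc1b (0.60, not called, and 1.36, higher) in the sex difference. In simulated data log2 changes of 1 between the bodies were mostly undetected, but only 100 probe sets changed at each size there. On the real body arrays 1324 genes were called higher and 1398 lower, which makes the adjusted threshold less strict. The simulated share therefore does not carry over to them.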
